A study of Mus musculus with 34 samples.

Results

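The sorting nexin family was described in the dorsal hippocampus of mice trained in the spatial object recognition (SOR) task. The members were the protein-coding genes whose symbol is Snx followed by a number, which gave 30 genes of the 54532 in the bulk RNA-seq count table. The family was examined because Snx17 rose by a small and even amount after training in these same libraries. The SOR against homecage contrast of Snx17 therefore chose it, so its values are given as a description with no test, while the other members were picked by symbol alone. The study also collected spatial transcriptomic, single-nucleus RNA and single-nucleus ATAC data, which were not analysed here.

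All groups were adult male C57BL/6J mice of 2 to 3 months, with no transgene or injected agent in the bulk experiment. The SOR group held 4 mice that explored objects in an arena and were euthanized 1 h after training, and the homecage group held 4 mice that stayed in their cages. Both groups had been housed singly and handled beforehand. One library was made from the dorsal hippocampus of each animal, with all cell types of the tissue mixed. In such tissue, fewer cells of a type and less RNA per cell cannot be told apart. Total counts ran from 51406011 to 81525977 per library. As a check of the labels, the activity-regulated gene Arc was higher in all 4 SOR mice (log2 fold change 1.42, adjusted p = 8.27e-06), as was Fos (1.89, adjusted p = 0.00477), and 8 of 9 immediate early genes read passed the threshold, all but Npas4.

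Sorting nexins are proteins that carry a phox homology (PX) domain, which binds phosphoinositides such as phosphatidylinositol 3-phosphate (PI3P) on endosomes. They help decide whether a membrane protein taken up from the cell surface is degraded or sent back. The family is grouped by what lies beside the PX domain. SNX-FERM members (Snx17, Snx27 and Snx31) bind sorting signals in the tails of cargo proteins through a FERM-like module. SNX-BAR members carry a BAR domain that bends membrane into tubules, SNX-PXA-RGS members carry a PXA domain, most of them with a regulator of G protein signaling domain, and the rest hold a PX domain alone or with another module. In neurons, SNX27 works with the retromer complex in the return of glutamate receptors to synapses, and SNX17 works with the Commander complex in the return of lipoprotein receptors and integrins.

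Snx17 (ENSMUSG00000029146) lies on the plus strand of chromosome 5 at 31193227 to 31199143 (GRCm38, GENCODE M21). It starts head to head with Eif2b4, a subunit of a translation initiation factor, which is read from the minus strand. The RefSeq starts of these genes are 165 bases apart. In GENCODE, the annotation behind the gene positions given here, Snx17 starts before its RefSeq start and the first exons of both genes overlap. A short stretch between the RefSeq starts is shown because it holds the only match to the motifs searched in the RefSeq window of Snx17. It is chr5:31193253-31193282 (GRCm38, plus strand, from RefSeq), and it lies before the RefSeq start of Snx17 but inside the GENCODE records of both genes. The capitals mark the reverse complement of TGACG, a short form of the cyclic AMP response element that one partner of a CREB pair can bind.
Snx17 stretch with the match: tgctcgcagagcCGTCAtcctacagccttc

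The match lay 39 to 35 bases before the RefSeq start of Snx17. Motifs were read on both strands in windows of 300 bases (250 before and 50 after a RefSeq start), and 21 of the 30 sorting nexins had 26 such windows. The short form TGACG was in 6 of these windows, those of Snx3, Snx12, Snx14, Snx17, Snx30 and Snx33, and in 20.8% of all 32851 windows. Each full element TGACGTCA also holds the short form. The full element was in 0 of the 26 windows and in 1.79% of all windows. The EGR site GCGTGGGCG was found for Snx8 and in 0.612% of all windows. The AP-1 site TGANTCA was found for Snx10 and Snx29 and in 7.81% of all windows, and the CArG box of serum response factor was in 0 of the 26 and in 1.63% of all. These are matches of letters only.

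Snx17 was measured at 35.0, 34.9, 35.5 and 35.4 CPM in homecage replicates 1 to 4, and at 47.5, 46.5, 46.4 and 48.1 CPM in SOR replicates 1 to 4. CPM is the count of a gene per 1000000 counts of its library, after upper-quartile scaling. Every SOR mouse stood above every homecage mouse, with no overlap. The homecage mean was 35.2 ± 0.292 CPM (SD, n = 4) and the SOR mean 47.2 ± 0.836 (SD, n = 4). The log2 fold change was 0.42, a 1.34-fold rise. Behind these values were 1927 to 3535 Snx17 counts per library.

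The mice of 1 group differed little in Snx17. The coefficient of variation was 0.831% in homecage and 1.77% in SOR, and counting error alone amounts to 2.08% and 1.86% at these counts. The spread was thus below the counting error in both groups, a limit on how far the SD of 4 mice can be taken as the spread among animals. The within-group SD of log2 CPM was 0.0199, the lowest of the 29 sorting nexins tested, where the median was 0.0858 and the highest, of Snx20, was 0.285. By size alone, 867 of 22018 genes tested (3.94%) had a log2 fold change at or above that of Snx17, and most of these were less abundant genes. Among the 4606 genes with at least the mean CPM of Snx17, 20 rose as much or more. Snx17 itself is counted in the 867, the 4606 and the 20. Because Snx17 was chosen for a small and even rise in these libraries, these places describe it and do not measure how unusual it is.

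**Figure D1:**
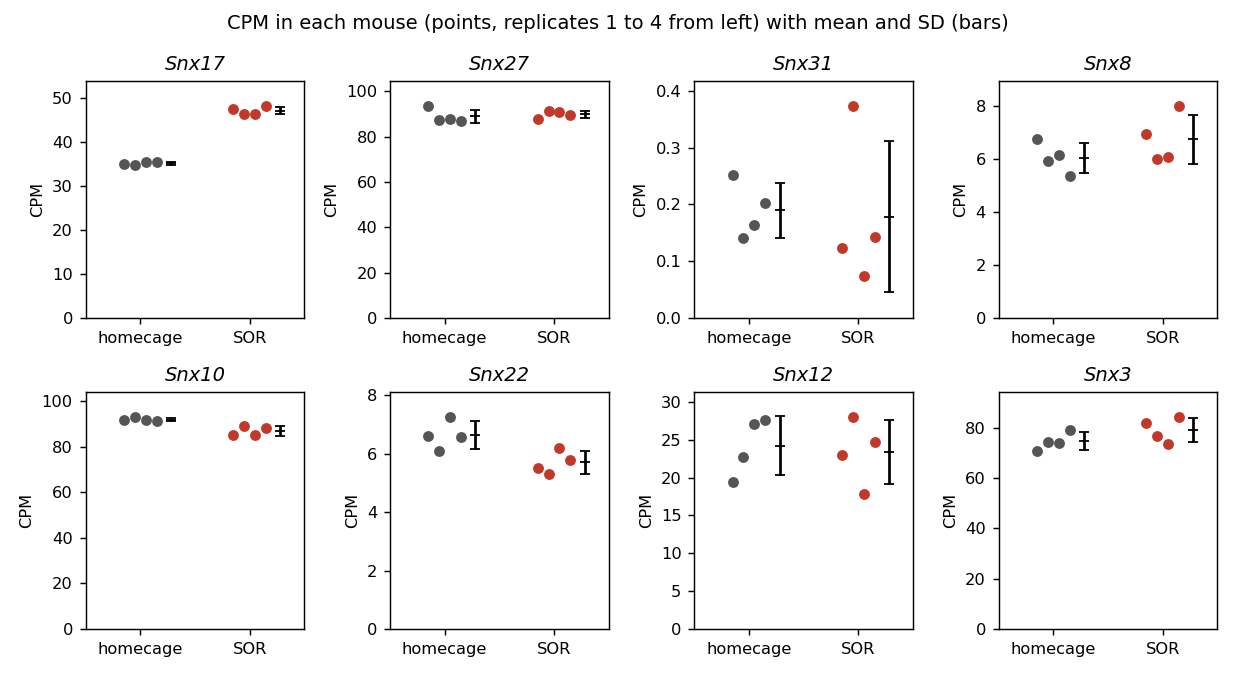
CPM (vertical axes, linear and starting at 0) of 8 sorting nexins in each homecage mouse (grey points) and each SOR mouse (red points), with the mean and SD of 4 mice as black bars. The Snx17 points lie at 34.9 to 35.5 CPM in homecage and 46.4 to 48.1 CPM in SOR, Snx10 shows a small shift the other way, and the points of the other 6 genes overlap between groups.

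The other sorting nexins were compared in the same fit. Of the 30 genes, 29 passed the filter on low counts, and 28 of these were members other than Snx17. None of the 28 passed an adjusted p of 0.05 in the quasi-likelihood test of edgeR (0 higher and 0 lower), beside 0.309% of all genes tested, 0.273% higher and 0.0363% lower. When a fold above 1.4 was also required the count was 0 again, beside 0.173% of all genes, 0.15% higher and 0.0227% lower. Their adjusted p ran from 0.462 to 0.999. At an unadjusted p under 0.05 there were 0 higher (4.54% of all genes) and 2 lower (5.51% of all genes), Snx10 and Snx22. DESeq2, limma-voom and the likelihood ratio test also gave 0 calls among them. Of the 28, 8 had a log2 fold change above 0 and 20 below 0 (71.4% below 0, beside 56.2% of all genes below and 43.8% above). With TMM or RLE scaling or DESeq2 the split was 14 above and 14 below, and without SOR replicate 3 it was 14 and 14 as well. The median log2 fold change of the 28 was -0.02, as it was over all genes tested (-0.02).

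Most of these changes were bounded closely. The 95% interval held 0 for 26 of the 28 members. It lay within a 1.2-fold change in either direction for 21 of them and within 1.4-fold for 27, all but Snx20. The highest upper limit, of Snx8, was 0.42. In data simulated at this depth, the test recovered 2.5% of genes changed by 1.2-fold, 46.5% at 1.4-fold and 89% at 2-fold. The changed genes were drawn from all but the least abundant genes tested, so the rates are not those of the sorting nexins. The count of 0 says little about changes of the size seen here.

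**Figure D2:**
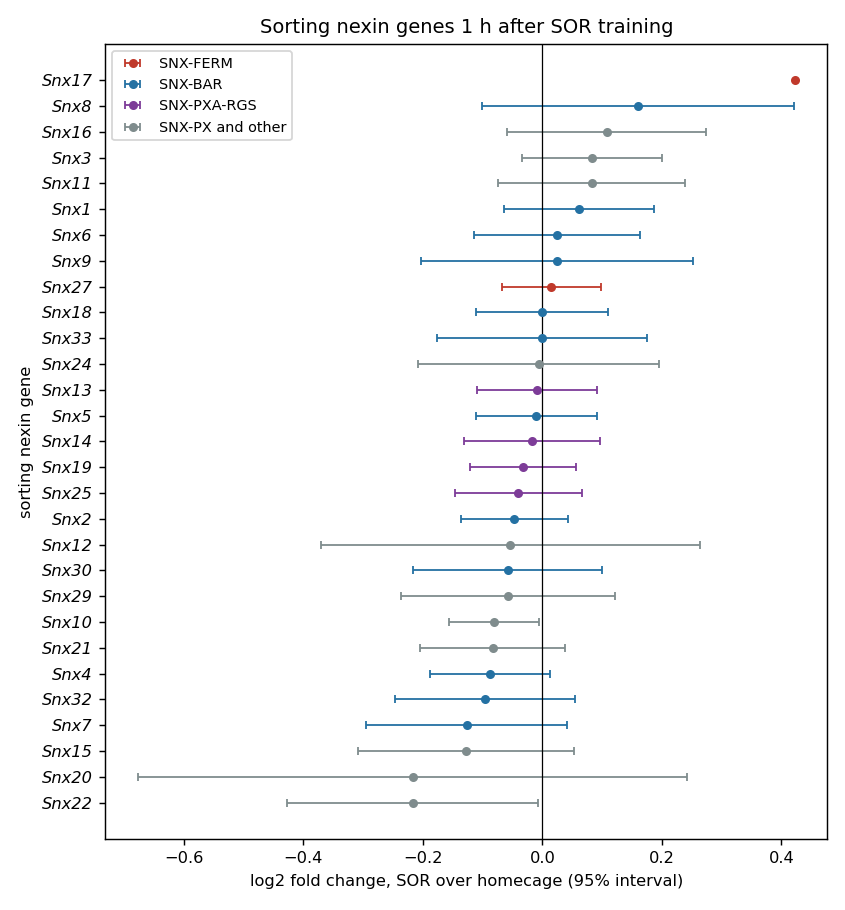
Log2 fold change of SOR over homecage (horizontal axis) for the 29 sorting nexins of the fit, with its 95% interval (lines) for all but Snx17, coloured by subfamily and sorted by size. Snx17 stands at 0.42 and the next gene, Snx8, at 0.16, and 26 of the other 28 intervals cross 0.

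Snx27 is the closest relative of Snx17 that the hippocampus expresses in quantity. It was measured at 93.3, 87.4, 87.8 and 87.0 CPM in homecage replicates 1 to 4 and at 87.6, 91.4, 90.8 and 89.3 CPM in SOR replicates 1 to 4. The groups overlapped, with homecage replicate 1 the highest of all 8 mice and homecage replicate 4 the lowest. The means were 88.9 ± 2.96 and 89.8 ± 1.68 CPM (SD, n = 4 each). SOR differed from homecage by a log2 fold change of 0.02 with a standard error of 0.037 (95% interval -0.07 to 0.10, adjusted p = 0.932, edgeR). Snx17 stood at 0.396 ± 0.0144 of the CPM of Snx27 in homecage and at 0.525 ± 0.0178 in SOR (SD, n = 4 each), a ratio of gene totals that is not corrected for length.

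Snx31, the third SNX-FERM gene, was close to the limit of detection with 4.88 to 20.7 counts per library. It did not pass the filter and was not tested. Its level was 0.189 ± 0.0484 CPM in homecage and 0.178 ± 0.133 in SOR (SD, n = 4 each). The highest value was in SOR replicate 2, at 0.372 CPM, and the lowest in SOR replicate 3, at 0.0749 CPM, so the groups overlapped.

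Among the 12 SNX-BAR genes the median log2 fold change was -0.01, with 4 above and 8 below 0. Snx8, which acts in transport from endosomes to the Golgi, had the largest rise of the family after Snx17. It was measured at 6.76, 5.94, 6.16 and 5.38 CPM in homecage and at 6.96, 6.02, 6.08 and 8.00 CPM in SOR. The difference rested mainly on SOR replicate 4, and the other 3 SOR values lay within or just above the homecage range. Its log2 fold change was 0.16 with a standard error of 0.118 (adjusted p = 0.703, edgeR), and it was 0.07 when that replicate was left out. Snx1, Snx2, Snx5 and Snx6, which pair into the membrane-bending dimers that work with retromer, ran from -0.05 (Snx2) to 0.06 (Snx1). Snx9, Snx18 and Snx33, which act in endocytosis at the plasma membrane, ran from -0.0012 (Snx33) to 0.02 (Snx9). Snx4, Snx7 and Snx30, which take part in recycling and autophagy, ran from -0.13 (Snx7) to -0.06 (Snx30).

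The 4 SNX-PXA-RGS genes, Snx13, Snx14, Snx19 and Snx25, are linked to contacts between the endoplasmic reticulum and other organelles. All 4 had a log2 fold change below 0, from -0.04 (Snx25) to -0.01 (Snx13), and none passed the threshold. With TMM or RLE scaling or DESeq2, Snx13 and Snx14 lay above 0 instead.

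Among the 11 SNX-PX and other genes the median was -0.06, with 3 above and 8 below 0. Snx10, which is needed for endosome and lysosome function in osteoclasts, was the only sorting nexin apart from Snx17 whose groups did not overlap. It was measured at 91.6, 93.1, 91.7 and 91.4 CPM in homecage and at 85.2, 89.1, 85.1 and 88.4 CPM in SOR. All 4 SOR values were below all 4 homecage values, by a margin that is small beside the level. The log2 fold change was -0.08 with a standard error of 0.034 (adjusted p = 0.462, edgeR). An exact two-sided permutation test gave p = 0.0286, the smallest that 4 against 4 allows. This was 1 of 28 members without overlap, beside 6.95% of all genes. It was 1 lower, beside 3.96%, and 0 higher, beside 2.99%.

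Snx22, which holds little beyond its PX domain, had the largest fall in the family. It was measured at 6.61, 6.08, 7.25 and 6.59 CPM in homecage and at 5.52, 5.29, 6.19 and 5.80 CPM in SOR. Only SOR replicate 3 reached into the homecage range. Its log2 fold change was -0.22 with a standard error of 0.095 (adjusted p = 0.481, edgeR, and p = 0.0571 in the exact permutation test). Of the exon bases of Snx22, 28.5% are shared with Ppib on the other strand, which is far more abundant at 103 CPM, and reads of the 2 genes may not be separable where the counting did not use strand.

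Snx20, an adaptor for a leukocyte selectin ligand, was at 1.01 ± 0.273 CPM in homecage and 0.869 ± 0.0953 in SOR (SD, n = 4 each). Its log2 fold change of -0.22 had a standard error of 0.208 (adjusted p = 0.784, edgeR), the least precise of the family, and was -0.044 without homecage replicate 3. Snx15, which joins a PX domain to a microtubule-interacting and trafficking domain, was at 12.5 ± 0.609 and 11.5 ± 0.993 CPM (log2 fold change -0.13, standard error 0.082, adjusted p = 0.651). For both genes the groups overlapped. Snx16, found on early and late endosomes, was at 25.9 ± 0.898 and 27.9 ± 2.99 CPM (log2 fold change 0.11, standard error 0.075, adjusted p = 0.683), and was 0.035 without SOR replicate 1, the highest value. Snx12, a close relative of Snx3, spread most among the abundant members, from 17.8 to 27.98 CPM over the 8 mice, with a coefficient of variation of 16.1% in homecage and 18.2% in SOR.

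The level of each gene was also set per kilobase of exon (the union of annotated exons), the scale on which genes can be compared. Snx3, which with retromer returns the Wnt carrier Wntless, was the most abundant at 52.8 ± 2.49 CPM per kb in homecage and 55.9 ± 3.49 in SOR (SD, n = 4 each). Its CPM was 70.6, 74.5, 73.9 and 79.2 in homecage and 81.96, 76.6, 73.3 and 84.1 in SOR, with overlap (log2 fold change 0.08, standard error 0.053, adjusted p = 0.645). Snx2 followed at 21.3 ± 0.626 and Snx13 at 18.0 ± 0.873 CPM per kb in homecage. The lowest were Snx31 at 0.0645 ± 0.0165, Snx20 at 0.157 ± 0.0425 and Snx8 at 1.87 ± 0.177. Snx20 and Snx31 thus stood apart from all others, while 28 of the 30 genes lay between the levels of Snx8 and Snx3.

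Snx17 ranked 10 of 30 in homecage at 11.4 ± 0.0946 CPM per kb. Its neighbours in the order were Snx30 (11.6 ± 0.705), Snx19 (11.6 ± 0.167) above it and Snx32 (10.7 ± 0.442) below it, and the spreads of Snx30, Snx17 and Snx19 overlapped. Snx32 shares 13.2% of its exon bases with Cfl1 on the other strand, at 367 CPM, so its level has the same limit as that of Snx22. In SOR Snx17 stood at 15.3 ± 0.270 CPM per kb and ranked 4, between Snx13 (17.9 ± 0.731) and Snx1 (14.3 ± 1.11). The spread of Snx1 reached the level of Snx17. Summed over all 30 genes, the family stood at 289.8 ± 4.23 CPM per kb in homecage and 293 ± 7.75 in SOR. Without Snx17 the sums were 278 ± 4.19 and 278 ± 7.53. Snx17 made up 3.93% ± 0.0527 of the family sum in homecage and 5.20% ± 0.0852 in SOR (SD, n = 4 each).

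**Figure D3:**
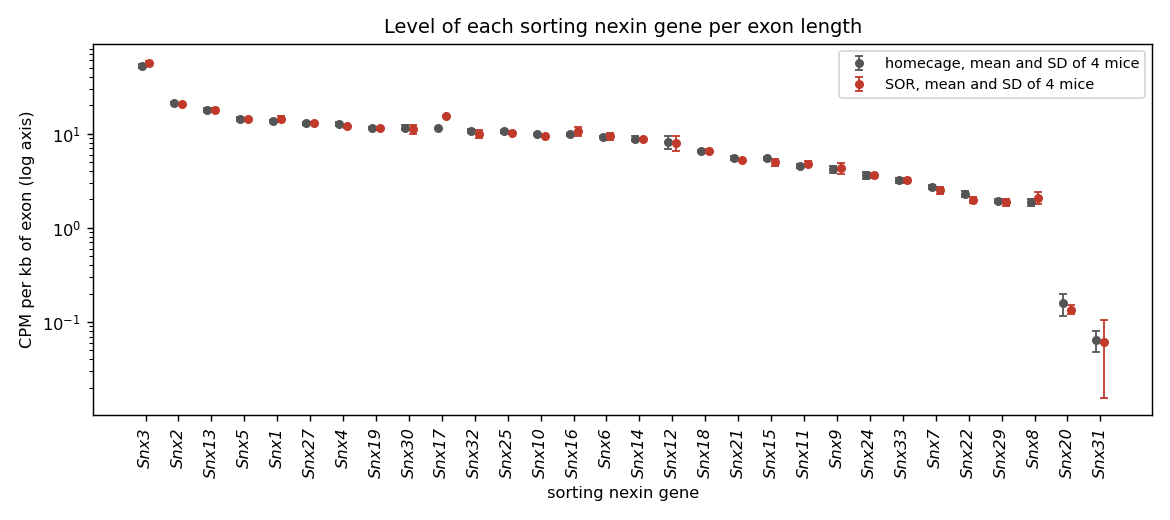
CPM per kb of exon (log axis) of the 30 sorting nexins in homecage (grey) and SOR (red), as mean and SD of 4 mice, sorted by the homecage level. Levels run from 0.0645 (Snx31) to 52.8 (Snx3) in homecage, and the grey and red points are clearly apart for Snx17, at 11.4 and 15.3.

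The genes beside Snx17 were examined because 2 of them overlap it. Eif2b4 shares 204 exon bases with Snx17 (6.60% of the Snx17 exons) at its start and Zfp513, a zinc finger gene, shares 163 (5.27%) at its end, both on the other strand. Eif2b4 was at 25.6, 22.8, 22.1 and 21.4 CPM in homecage and at 21.4, 22.4, 22.1 and 21.7 CPM in SOR. Homecage replicate 1 was the highest of all 8 mice, and the groups overlapped. Its log2 fold change was -0.07 with a standard error of 0.065 (adjusted p = 0.784, edgeR), opposite in sign to Snx17. Zfp513 had a log2 fold change of 0.13 with a standard error of 0.108 (adjusted p = 0.744, and 0.047 without SOR replicate 4), with means of 10.1 and 11.1 CPM and overlapping groups.

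Farther away, the log2 fold changes were 0.05 for Gtf3c2, -0.39 for Gm29609 and -0.06 for Mpv17 on the side of lower coordinates, and -0.08 for both Ppm1g and Nrbp1 on the side of higher coordinates. None of these 7 neighbours passed the threshold (adjusted p 0.575 to 0.891), and the groups overlapped for each. Gm9970 did not pass the filter. The library kit keeps strand, but whether the counting used it is not given in the sources used here.

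**Figure D4:**
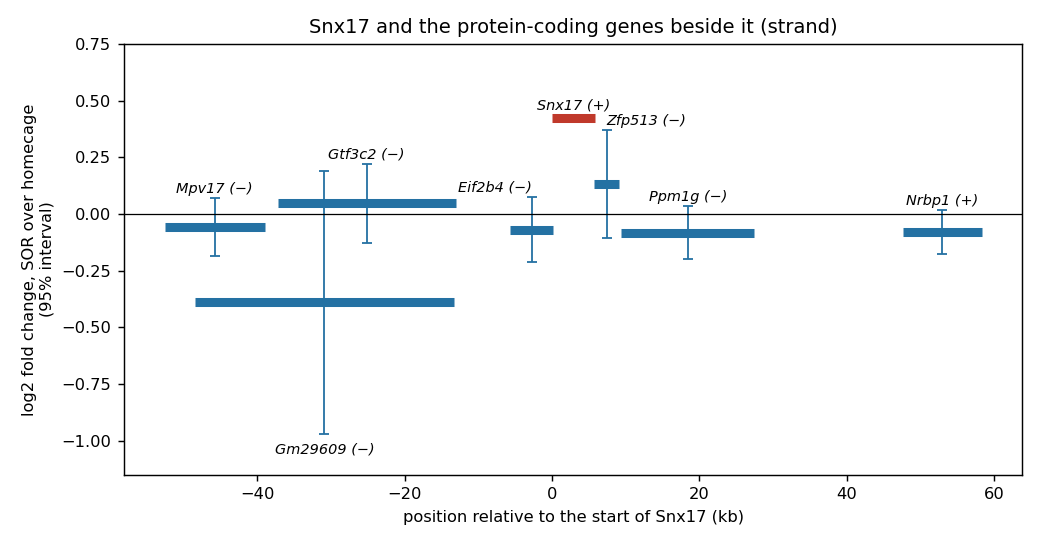
Log2 fold change of SOR over homecage (vertical axis) of Snx17 (red, no interval drawn) and 7 tested protein-coding neighbours (blue, 95% intervals as thin lines), each drawn as a bar over its span relative to the Snx17 start in kb. Snx17 stands at 0.42, and the intervals of the neighbours all cross 0.

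The genes that act with SNX17 were read from lists, which are described by counts and medians. Over all genes tested, 0.309% passed the threshold, so a count of 0 in lists this short says little. SNX17 hands its cargo to Commander, made of a Retriever part and the COMMD and CCDC proteins. Of the 15 genes on its list 0 passed the threshold. Their median log2 fold change was 0.02, from -0.13 (Commd4, adjusted p = 0.592) to 0.17 (Ccdc93, adjusted p = 0.552). The list leaves out Vps29, a Retriever part that is counted below with the retromer genes. The 7 receptors known as SNX17 cargo, among them the lipoprotein receptors Lrp1 and Lrp8, the amyloid precursor protein App and the integrin Itgb1, had 0 past the threshold and a median of -0.01, and the lowest was Vldlr at -0.05 (adjusted p = 0.768). The 5 genes of the WASH complex, which builds actin patches on endosomes, had 0 past the threshold and a median of -0.07, from -0.11 (Washc3, adjusted p = 0.741) to 0.15 (Washc4, adjusted p = 0.412). The 4 retromer genes, partners of SNX27 and SNX3, all lay slightly below 0, from -0.05 (Vps29, adjusted p = 0.822) to -0.01 (Vps26b, adjusted p = 0.980), and Vps26b was above 0 with TMM, RLE or library size scaling and with DESeq2.

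The 15 genes that make or remove PI3P, the lipid that most PX domains bind, had 0 past the threshold and a median of -0.03. Mtmr4, an endosomal phosphatase of PI3P, was the one that came nearest. It was measured at 91.5, 87.0, 85.7 and 79.4 CPM in homecage and at 117, 101, 103 and 102 CPM in SOR. All SOR values were above all homecage values, with SOR replicate 1 highest. The log2 fold change was 0.30 with a standard error of 0.059 (adjusted p = 0.0805, edgeR quasi-likelihood test). The adjusted p was 0.00264 in the likelihood ratio test and 0.00126 in DESeq2. With library size scaling it was 0.135 in the quasi-likelihood test. Over all alternatives tried, each with the test of its own fit, it ran from 0.00015 to 0.255. Fig4, a phosphatase of a related lipid, was lower in all 4 SOR mice without overlap. Its log2 fold change of -0.09 (adjusted p = 0.492) did not pass the threshold. Of the 15 genes, 1 was higher and 1 lower without overlap, beside 2.99% and 3.96% of all genes tested.

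The 16 endosomal Rab and tether genes had 0 past the threshold and a median of -0.02. Rab11fip3, an effector of the recycling GTPase Rab11, was higher without overlap (log2 fold change 0.12, adjusted p = 0.384). It was at 57.6 ± 0.650 CPM in homecage and 62.7 ± 3.29 in SOR (SD, n = 4 each). Of the 16 genes, 1 was thus higher and 0 lower without overlap, beside 2.99% and 3.96% of all genes tested. Rab11fip1 had a value of 0.35 (adjusted p = 0.784) that rested on SOR replicate 1, at 6.52 CPM beside 2.42 to 2.85 CPM in the other 3 SOR mice, and was -0.10 without it. The largest fall was that of Rabgef1, an activator of Rab5, at -0.12 (adjusted p = 0.573). The 14 other PX domain proteins, which have no Snx symbol, had 0 past the threshold and a median of 0.04, from -0.18 (Noxo1, adjusted p = 0.875) to 0.17 (Sgk3, adjusted p = 0.776, and 0.013 without SOR replicate 1). Among these 14, and among the Commander, cargo receptor, WASH and retromer genes, 0 were without overlap in either direction.

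**Figure D5:**
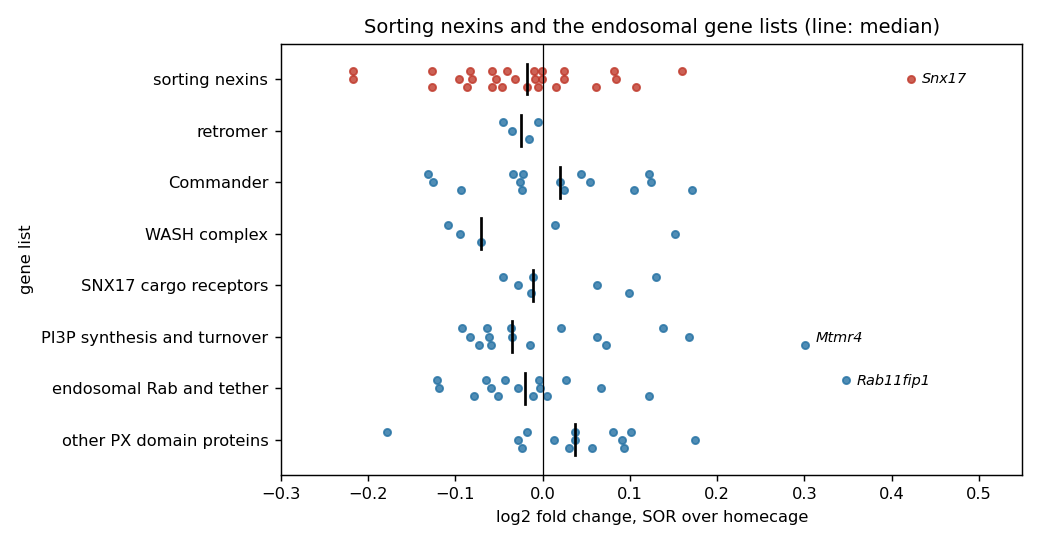
Log2 fold change of SOR over homecage (horizontal axis) of each tested gene (points) in the sorting nexin family (red) and in 7 endosomal gene lists (blue), with the median of each as a black line. Snx17 lies farthest to the right at 0.42, followed by Rab11fip1 at 0.35 and Mtmr4 at 0.30, and the medians of the 7 lists lie between -0.07 and 0.04.

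Markers of the cell types in the tissue were measured beside these values. The 6 markers of mature oligodendrocytes were all lower in SOR, with summed levels of 5021 to 5480 CPM in homecage and 4109 to 5381 CPM in SOR, and 0 of 6 passed the threshold. The 4 choroid plexus markers summed to 23.6 to 1058 CPM in homecage and 38.9 to 3901 CPM in SOR. Their part in the sorting nexin values was not tested. None of the marker genes read passed the threshold. The oligodendrocyte marker Opalin (log2 fold change -0.50, adjusted p = 0.164, edgeR) was lower in SOR without overlap. So was the endothelial marker Cldn5 (-0.30, adjusted p = 0.199, edgeR), while the other 3 endothelial markers were higher. Over all genes tested, 3.96% were lower without overlap. The markers of CA1, CA3, dentate granule cells and inhibitory neurons were all detected, as the tissue label has it.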

How the data were processed

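Bulk RNA-seq libraries came from the dorsal hippocampus of 4 homecage and 4 SOR mice. The methods name a stranded total RNA kit with removal of ribosomal RNA, while the labels name polyA RNA. The methods name STAR for alignment and featureCounts for counts per gene, both in bcbio-nextgen, and the labels name the mm10 build. The values deposited by the authors are estimated counts per gene, summarized with tximport, without normalization. The methods do not name tximport, so whether featureCounts lies behind these values is unclear. Of these values 52.6% are not whole, and the tool behind the estimates is not given in the sources used here. The spatial and single-nucleus data were not analysed here.

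Counts were rounded, filtered with filterByExpr (22018 of 54532 genes kept) and scaled by upper quartile. SOR was compared with homecage in edgeR 4.0.16 (R 4.3.3) by its quasi-likelihood test, and p was adjusted by Benjamini-Hochberg across the genes kept, with a threshold of 0.05 and no fold threshold. Groups came from the labels. The standard error is the log2 fold change divided by the square root of F. For a gene named on its own, the 70 ways to split the 8 values of log2 CPM gave an exact permutation p (two-sided). Gene models were those of GENCODE M21, with a record for 54495 genes, and promoter windows those of RefSeq. The test was tested on simulated data. Its biological coefficient of variation was 14.1%. Libraries of a group differed by more than sampling noise (chi-square per degree of freedom 11.9 to 54.1, the highest for a pair with SOR replicate 1). The 95% intervals come from the edgeR fit and include the spread between mice, while the counting errors given for Snx17 cover counting only. Labels do not say whether libraries of a group were prepared in separate batches.

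The alternatives tried were scaling by TMM, RLE or library size, other filters, the likelihood ratio test, DESeq2 1.42.0, limma-voom (limma 3.58.1), 1 to 3 RUVs factors, a replicate block, each library left out, and a fold above 1.4 as well. The fits with RUVs factors used the likelihood ratio test. The authors used upper-quartile scaling, RUVs with a number of factors not given, and edgeR. The family (and with it the members, which follow from their symbols) and the lists were chosen with earlier results of these data known. Named were Snx17, the other SNX-FERM genes, members past the threshold or without overlap, the 3 largest rises and falls, the 3 highest and lowest levels, members removed by the filter, the genes beside Snx17, and from each list the members past the threshold or without overlap and the largest rise and fall. Snx12 was named after its values were seen, as were the other members given with a value only. A result that this rule would name is not reported here.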

Additional observations from a re-analysis of the deposited data

Results flagged for a closer look

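In some groups of 4 mice, 1 value stood far from the other 3, with a gap to the nearest, over the range of the group, above the 95% critical value of Dixon. Of 246 groups checked, chance gives such a value in about 1 in 20. Among the sorting nexins, Snx1 was high in homecage replicate 3 at 62.2 CPM (58.1 to 58.7 in the others), Snx27 in homecage replicate 1 at 93.3 CPM (87.0 to 87.8) and Snx10 in homecage replicate 2 at 93.1 CPM (91.4 to 91.7). Snx18 was low in SOR replicate 3 at 32.0 CPM (35.1 to 35.4), and Snx25 in homecage replicate 4 at 44.6 CPM (47.7 to 48.0). With any one of the 8 mice left out, the count of sorting nexins other than Snx17 past the threshold was 0 as well.

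Among the genes that act with them, values stood apart on the low side for Commd6 (14.4 CPM, homecage replicate 1), Commd7 (13.4 CPM, homecage replicate 4), Washc3 (8.68 CPM in homecage replicate 3 and 8.64 CPM in SOR replicate 3) and Pik3c2b (13.1 CPM, SOR replicate 1). They stood apart on the high side for Ccdc93 (43.8 CPM, SOR replicate 3), Mtmr4 (117 CPM, SOR replicate 1), Rab11fip1 (6.52 CPM, SOR replicate 1), Noxo1 (1.16 CPM, homecage replicate 1) and Pld1 (13.8 CPM, SOR replicate 2). Of the genes beside Snx17, Mpv17 was low in homecage replicate 1 at 32.9 CPM, and of the immediate early genes, Egr2 was high in homecage replicate 1 at 1.86 CPM.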

How the results depend on the processing

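The log2 fold change of Snx17 was 0.42 to 0.44 under the 12 alternative fits with all samples (0.44 with TMM and RLE scaling and with DESeq2) and 0.41 to 0.43 with a library left out. The count of other sorting nexins past the threshold was 0 in either direction under every alternative, also with a fold above 1.4. Their median log2 fold change lay between -0.040 and 0.0023 with a library left out, above 0 without SOR replicate 3. The count of endosomal list genes past the threshold was 1 higher, Mtmr4, in place of 0 with the likelihood ratio test, DESeq2 and 1, 2 or 3 RUVs factors. The RUVs fits used the likelihood ratio test too, so they are no separate check of the choice of test. With library size scaling the adjusted p of Mtmr4 was 0.135 (edgeR quasi-likelihood test), and the highest under any alternative was 0.255 (by the test of that fit). With the longest transcript as length, Snx17 ranked 8 by homecage level. Same-numbered libraries did not deviate together (r -0.084 to 0.043, other pairs -0.175 to 0.194). No strong shared effect by number was thus seen, but such r values cannot exclude a pairing. With the replicate block the Snx17 value was 0.42, the median of the other sorting nexins -0.02, and no call changed.

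Of the 28 other sorting nexins, 19 had the same sign in all fits and 9 changed it. Under TMM scaling Snx18 was at 0.019, Snx33 at 0.020, Snx24 at 0.015, Snx13 at 0.011, Snx5 at 0.010, Snx14 at 0.0027 and Vps26b at 0.015. Under RLE scaling they were at 0.020, 0.021, 0.017, 0.012, 0.012, 0.0040 and 0.016 in the same order, and with DESeq2 at 0.021, 0.022, 0.017, 0.012, 0.012, 0.0038 and 0.016. Under library size scaling Snx18 was at 0.0061, Snx33 at 0.0061, Snx24 at 0.0036 and Vps26b at 0.0020. With a filter of over 5 counts in 2 or more samples Snx18 was at 0.0033 and Snx33 at 0.0030, with limma-voom Snx33 was at 0.0040, and with 2 and 3 RUVs factors Snx9 was at -0.013 and -0.0040.

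With a library left out, the ranges were -0.024 to 0.071 for Snx6, -0.079 to 0.078 for Snx9, -0.15 to 0.057 for Snx12, -0.039 to 0.024 for Snx13, -0.041 to 0.032 for Snx14, -0.040 to 0.010 for Snx5, -0.019 to 0.033 for Snx18, -0.060 to 0.028 for Snx24 and -0.042 to 0.046 for Snx33. They were -0.021 to 0.0060 for Vps26b, -0.10 to 0.61 for Rab11fip1, -0.30 to 0.13 for Noxo1 (above 0 without homecage replicate 1) and -0.024 to 0.090 for Gtf3c2. The medians ranged from -0.043 to 0.024 for PI3P synthesis and turnover, from 0.013 to 0.077 for other PX domain proteins, from -0.019 to 0.034 for SNX17 cargo receptors, from -0.012 to 0.041 for Commander and from -0.046 to -0.015 for endosomal Rab and tether genes. With all libraries, the last was 0.0016 and that of the cargo receptors 0.0098 at most, both above 0 with TMM or RLE scaling or DESeq2. Of the values named that lay over 0.1 from 0, some kept their sign but moved by over 1.5 times. They ranged from 0.068 to 0.22 for Snx8, -0.33 to -0.044 for Snx20, 0.035 to 0.15 for Snx16, 0.013 to 0.27 for Sgk3 and 0.047 to 0.21 for Zfp513. The ranges were 0.097 to 0.19 for Washc4, -0.17 to -0.074 for Washc3, 0.12 to 0.28 for Ccdc93, -0.17 to -0.087 for Commd4 and -0.61 to -0.24 for Gm29609. None of these genes passed the threshold. The cause of these moves was not tested. The depth and 4 mice a group limit what can be seen of changes under 1.4-fold.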
